A study of Caenorhabditis elegans with 2 samples.

Results

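Germline RNA regulators and P granule genes were examined as a set of 41 named protein-coding genes, found by symbol among the 19985 protein-coding genes of the C. elegans annotation, and all 41 were found. The set holds 10 P granule genes, 6 PUF genes, 10 genes for RNA-binding proteins of oocytes and early embryos, 9 genes for deadenylation and poly(A) control, 5 genes for translational repressors of the germline mRNA-protein complexes, and glp-1. For each gene, the question was whether ChIP-seq summits of the W03F9.2 protein, annotated with a zinc finger domain, lay at its promoter. A promoter spanned 1000 bp before and 200 bp after the annotated gene start, and a summit is the position of highest signal that the authors gave for a peak.

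The samples were 2 biological replicates in 1 group, made from whole worms of strain OP215 with males and females pooled, at the L4 and young adult stages. The genotype is unc-119(ed3) III; wgIs215, where wgIs215 carries W03F9.2 fused to eGFP and ed3 is a mutant allele of unc-119. Both replicates carry both alleles, and no untagged animals or other control group are among the samples, so every comparison is with other genes or between replicates. The antibody entry of the labels gives W03F9.2, whereas the description gives the eGFP fusion, and which of these was bound by the antibody is not stated. In whole animals the germline is mixed with all somatic tissues, and no cell type was separated, so a summit cannot be assigned to germ cells. Peak lists hold no expression values, and the germline label of the genes could not be checked against markers in these data.

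In germ cells, P granules are condensates of RNA and protein that sit at the nuclear envelope and hold many mRNAs and small RNA factors. Translation of germline mRNAs is controlled through their 3′ ends: PUF, Nanos, KH-domain and CCCH zinc finger proteins bind the mRNA, deadenylases and cytoplasmic poly(A) polymerases shorten or lengthen its tail, and repressors such as the CGH-1 helicase hold it silent. In C. elegans these proteins decide between mitosis and meiosis, between sperm and oocyte, and which maternal mRNAs are translated in the early embryo. They act on RNA, and the measurements here concern DNA at the promoters of the genes that encode them.

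The DNA under the strongest pooled summit is shown for 4 role groups, in each for the gene of highest signal among those considered. Genes on 1 chromosome were left out of this choice. Among them was glh-2, the P granule gene of highest signal (57.9), so pgl-1 (34.0) is shown for that role. The puf-11 window was added after the values were seen, since puf-11 is the close paralog of puf-3. Each window is 101 bases of the RefSeq WBcel235 genome centred on the summit, 5′ to 3′ on the strand of the gene. Capitals mark matches, on either strand, to the element TATAAA, to the repeat GAGAGA, to the GC-rich element GGGCGG, to the element TTTGAA, or to either of the later additions CGAGACC and GCGCCTT. The windows are chrIV:6977347-6977447 for pgl-1, chrIV:13512343-13512443 for puf-3, chrIV:6421331-6421431 for puf-11, chrII:11967692-11967792 for mex-1 and chrIII:4475605-4475705 for ifet-1, with pgl-1, puf-3 and ifet-1 on the minus strand and the others on the plus strand.
pgl-1: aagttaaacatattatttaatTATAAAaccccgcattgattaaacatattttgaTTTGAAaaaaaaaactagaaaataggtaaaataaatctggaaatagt
puf-3: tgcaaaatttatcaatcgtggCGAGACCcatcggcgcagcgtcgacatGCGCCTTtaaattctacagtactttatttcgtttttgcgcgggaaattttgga
puf-11: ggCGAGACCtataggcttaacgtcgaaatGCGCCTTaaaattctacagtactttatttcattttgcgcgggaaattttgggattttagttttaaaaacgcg
mex-1: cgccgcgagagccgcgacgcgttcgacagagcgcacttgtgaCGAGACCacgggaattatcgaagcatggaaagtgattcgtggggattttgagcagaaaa
ifet-1: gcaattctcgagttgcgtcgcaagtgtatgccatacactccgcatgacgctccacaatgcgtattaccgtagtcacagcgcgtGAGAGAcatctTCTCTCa

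The windows differ in base composition, from 19.8% GC at pgl-1 to 55.4% at mex-1. The elements CGAGACC and GCGCCTT were read off summit windows after they had been seen, so the counts given for them further on describe the data and test nothing.

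Of the 41 genes, 11 (26.8%, exact 95% interval 14.2 to 42.9) had a promoter summit in the optimal set, the 2409 peaks that passed the authors' test of reproducible ranking. Over all protein-coding genes the share was 11.7%. In the pooled list of 30000 entries, which also holds entries below that threshold, 28 of the 41 genes (68.3%, interval 51.9 to 81.9) had a promoter summit, against 40.1% of all genes. The 2409 optimal-set peaks are the 2409 strongest entries of this list, so membership alone does not show a high rank in each replicate. The intervals cover counting error over genes only, the genes were chosen with earlier results known, and no test was made of either difference.

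The shares differed by role. Translational repressors had an optimal-set summit in 4 of 5 genes (80%, interval 28.4 to 99.5), and RNA-binding proteins of oocytes and embryos in 4 of 10 (40%, interval 12.2 to 73.8). Deadenylation and poly(A) control had one in 2 of 9 genes (22.2%, interval 2.81 to 60.01), and P granule components in 1 of 10 (10%, interval 0.253 to 44.5). PUF genes had none in 6 (interval 0 to 45.9), and glp-1 had none. The intervals of all these roles overlap, and with 5 to 10 genes a role the order of the shares is a description. The shares also depend on the grouping. cgh-1, car-1 and ifet-1, each with an optimal-set summit, were counted as repressors, although the CGH-1 protein is also found in P granules. In the pooled list the roles lay closer together, with 7 of 10 P granule genes, 4 of 6 PUF genes, 8 of 10 maternal RNA-binding genes, 5 of 9 deadenylation genes and 4 of 5 repressors.

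**Figure D1:**
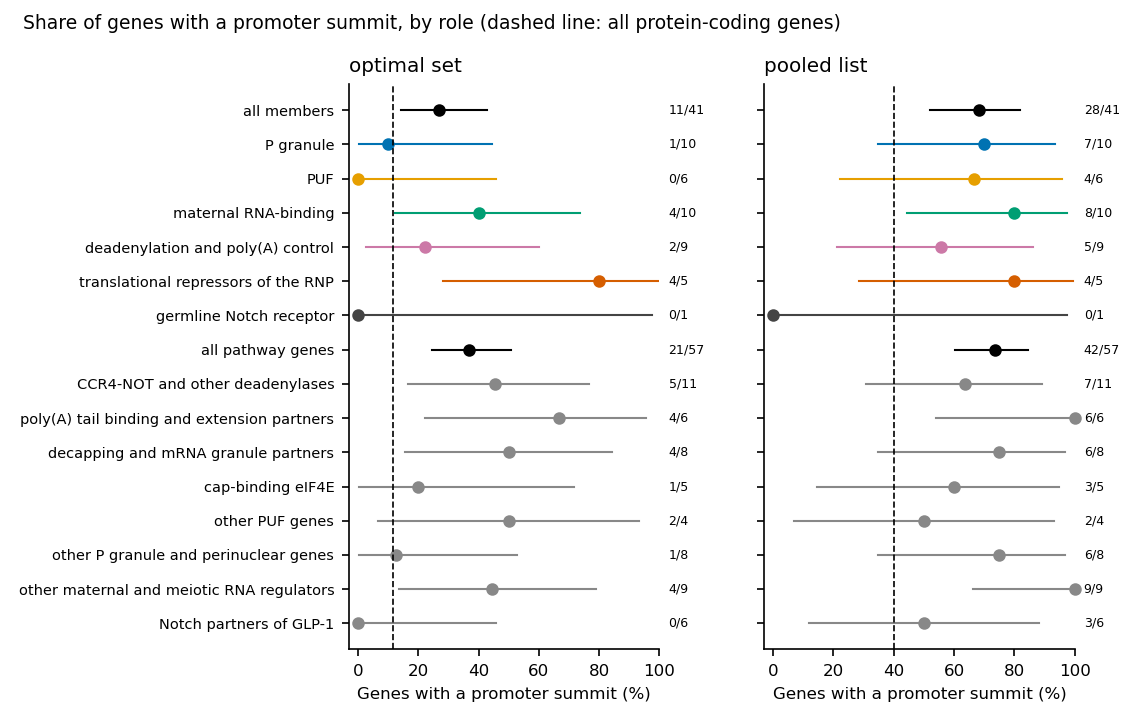
Percentage of genes with a promoter summit in the optimal set (left) and in the pooled list (right) for the 41 genes, their roles and lists of other genes of the pathway; points are shares, lines are exact 95% intervals, dashed lines mark 11.7% and 40.1% of all protein-coding genes, and the counts stand at the right of each panel. The repressors lie at 80% in both panels, while P granule genes go from 10% to 70% and PUF genes from 0 to 66.7%.

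Signal is the authors' own value per peak in the units of their caller. Among the 11 genes with an optimal-set summit it ran from 57.0 to 319 with a median of 68.7, against a median of 80.2 for all 2331 genes with such a summit. The lower edge of the set is at 48.5, and the lowest of the 11 were gld-1 (57.0), oma-1 (57.8), glh-2 (57.9) and mex-5 (58.2). Just outside it was puf-3 (48.2, rank 2436 of the pooled list). The next genes were further below, at oma-2 (43.8, rank 2830), puf-11 (42.1, rank 3037) and pie-1 (35.9, rank 3875). The 17 genes with only a pooled entry had signals from 13.8 to 48.2, with a median of 27.0.

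**Figure D2:**
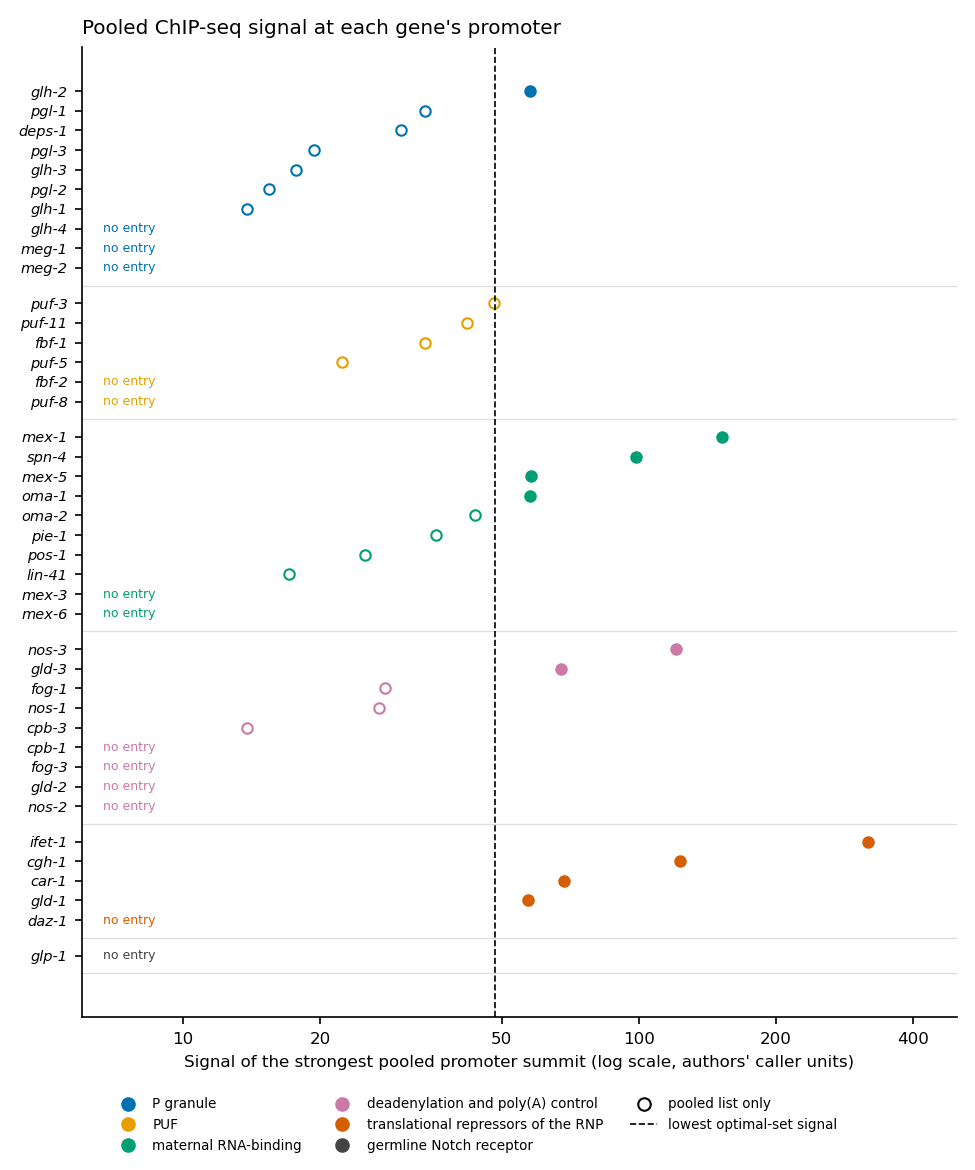
Signal of the strongest pooled promoter summit of each of the 41 genes on a log scale, in the units of the authors' caller; filled points are in the optimal set, open points are in the pooled list only, "no entry" marks the 13 genes without a pooled promoter summit, and the dashed line is the lowest optimal-set signal, 48.5. ifet-1 stands highest at 319, and no PUF gene reaches the line.

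The translational repressors hold the highest value of the set. ifet-1 encodes the worm relative of the eIF4E-binding repressor 4E-T. Its peak on chromosome III, 4475559 to 4475791, had a pooled signal of 319 and ranked 36 of 30000, with 135 in replicate 1 (rank 30) and 180 in replicate 2 (rank 47). Its summit lay at -505, counted in bp from the ifet-1 start with negative values upstream, but 263 bp before the start of the divergent gene rps-1, which encodes a small-subunit ribosomal protein, and inside exons of the noncoding genes F56F3.10 and F56F3.11. Which of these 4 genes the peak belongs to cannot be told from the lists.

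cgh-1 encodes a DEAD-box RNA helicase of the DDX6 family found in P granules and in repressive mRNA-protein complexes. Its peak, on chromosome III at 7498530 to 7498617, had a pooled signal of 123.2 (rank 328), with 25.8 in replicate 1 and 96.5 in replicate 2. The summit lay at -753 and in no other protein-coding promoter. The difference between replicates, 1.90 on the log2 scale, was the widest among the 11 genes. The peak spans 88 bp, less than the 350 bp that is the median width of the optimal set.

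car-1 encodes an LSM14-family partner of CGH-1. Its optimal-set summit, on chromosome I in the peak 12903476 to 12903825, had a signal of 68.7, with 39.2 in replicate 1 and 36.8 in replicate 2. It lay at -819 and only 202 bp before the divergent gene coa-5, named for cytochrome c oxidase assembly, while a pooled entry closer to car-1, at -296, had 18.6. gld-1 encodes a KH-domain repressor that promotes meiotic entry. Its peak, on chromosome I at 7695203 to 7695552, had 57.0, with 27.0 in replicate 1 and 33.5 in replicate 2, and its summit at -303 was in no other promoter. The replicate signals were similar in value at both genes, but each is on the scale of its own list. By rank, car-1 stood at 665 in replicate 1 and 1836 in replicate 2, and gld-1 at 1556 and 2166. daz-1, the worm relative of human DAZ and needed for oogenesis, had no pooled promoter entry, though replicate 1 alone held 1 with a signal of 20.6 (rank 2657) at -239.

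Among the RNA-binding proteins of oocytes and embryos, mex-1, which encodes a CCCH zinc finger protein that restricts fates in early blastomeres, had 2 optimal-set summits. The stronger, on chromosome II in the peak 11967673 to 11967778, had a signal of 152 (rank 196), with 56.3 in replicate 1 and 99.6 in replicate 2. It lay at -895 from mex-1 and 198 bp before the divergent gene W03C9.5, and also in the promoter of rab-7, a small GTPase of late endosomes. The weaker, in the peak 11968255 to 11968604, lay at -207, nearer to mex-1 than to any other start, and had 76.2, with 39.2 in replicate 1 and 35.4 in replicate 2. spn-4 encodes an RRM protein that controls maternal mRNAs, and its peak on chromosome V, 6785117 to 6785466, had 98.6, with 23.7 in replicate 1 and 73.4 in replicate 2. That summit lay at -389 from spn-4 and at -159 from the divergent gene spe-39, which acts in spermatogenesis and vesicle traffic.

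mex-5 and oma-1 had nearly equal pooled signals. mex-5, a CCCH protein that sets up the anterior-posterior axis of the zygote, had 58.2 at -292 on chromosome IV (13353256 to 13353605), shared with rec-8, the meiotic cohesin subunit, which starts 238 bp away. Its replicates went the other way from most peaks, with 39.9 in replicate 1 (rank 634) and 18.0 in replicate 2 (rank 6073). oma-1, a CCCH protein required for oocyte maturation, had 57.8 at -268 on the same chromosome (8888533 to 8888882) in no other promoter, with 26.9 in replicate 1 and 26.8 in replicate 2.

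In the same role, 4 genes had pooled entries only. The strongest was at oma-2, which acts together with oma-1, with 43.8 at -369 and replicate signals of 10.3 and 27.3. pie-1, which keeps germline blastomeres from transcribing somatic genes, had 35.9 at -186, with 5.56 in replicate 1 (rank 28629) and 30.1 in replicate 2 (rank 2612). pos-1, a CCCH protein for posterior fates, had 25.1 at -286, shared with the vacuolar ATPase gene vha-18. lin-41, a TRIM-NHL protein that controls oocyte growth, had 17.1 at -245, and a stronger summit of 51.3 lay outside its promoter at -1500. mex-3, a KH-domain protein, and mex-6, the paralog of mex-5, had no pooled promoter entry. Their replicate 1 entries were weak, at 6.86 and 8.35, and replicate 2 held one for mex-3 alone, at 6.34.

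Among the genes for deadenylation and poly(A) control, nos-3 and gld-3 had optimal-set summits. nos-3 is 1 of the worm Nanos genes and promotes the switch from sperm to oocyte. Its peak had a signal of 121 (rank 356), with 43.8 in replicate 1 (rank 498) and 83.2 in replicate 2 (rank 285). The summit lay 36 bp before the nos-3 start, at -36, and at -202 from the divergent gene Y53C12B.1. gld-3 encodes a Bicaudal-C relative that partners the poly(A) polymerase GLD-2, and its peak on chromosome II, 7131952 to 7132301, had 67.6, with 45.1 in replicate 1 and 26.5 in replicate 2. That summit lay at -516 from gld-3 and at -95 from T07F8.4. A second pooled entry at -295, nearer to gld-3, had 43.7 and overlapped the same replicate entries, so it adds no separate measurement.

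The other genes of this role had weaker entries or none. fog-1, a CPEB protein that specifies sperm, had 27.7 at -600, nos-1 had 27.0 at -60, and cpb-3, another CPEB gene, had 13.8 at -282. At nos-1 the replicates were far apart, with 5.91 in replicate 1 and 22.3 in replicate 2. gld-2, which encodes the cytoplasmic poly(A) polymerase itself, had no pooled promoter entry, and neither did nos-2, cpb-1 or fog-3, the last a Tob-family gene for sperm fate. Of these 4, replicate 1 held a promoter entry for gld-2 alone, at 7.92.

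P granule genes showed many pooled entries and a single optimal-set summit, at glh-2, a Vasa-like helicase gene. That summit, on chromosome I in the peak 6513760 to 6514109, lay in an exon of glh-2 at +7, shared with the divergent gene C55B7.11. It had 57.9, with 20.2 in replicate 1 (rank 2763) and 30.6 in replicate 2 (rank 2554), so that glh-2 was among the 2409 strongest entries of neither replicate. The core scaffold genes lay below the threshold, with 34.0 at pgl-1, at -79 and shared with the meiotic axis gene him-3, and 19.4 at pgl-3, at -209. The pgl-1 peak was matched in replicate 1 alone, to an overlapping entry (10.2) with its own summit outside the promoter. The strongest replicate 1 entry with a summit inside the pgl-1 promoter had 6.29 (rank 24513), at -29. The pgl-3 peak overlapped an entry of replicate 2 alone (11.1). deps-1, which promotes P granule assembly, had 30.1 at -184, shared with Y65B4BL.4, and 14.9 and 20.3 in the replicates. The paralog genes glh-3 (17.7 at -594), pgl-2 (15.4 at -269) and glh-1 (13.8 at -169) were weaker. The glh-3 and pgl-2 summits lay in exons of the neighbours mtk-1 and fli-1, and their peaks overlapped entries of replicate 2 alone (9.59 and 10.6). glh-4, meg-1 and meg-2 had no pooled promoter entry, and the meg genes, which encode disordered proteins of embryonic P granules, are neighbours on X, where meg-2 had a replicate 1 entry of 15.3.

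No PUF gene had an optimal-set summit, and of these genes puf-3 and puf-11, oocyte PUF genes, came closest to the threshold. puf-3 had 48.2 at -231, with 20.3 in replicate 1 and 27.5 in replicate 2, inside an intron of afmd-2 on the other strand. puf-11 had 42.1 at -204, with 23.8 in replicate 1 (rank 1984, among the strongest entries) and 17.8 in replicate 2. Their summits lie at similar places before the start, and the proteins are 88.6% identical. fbf-1, which with fbf-2 keeps germline stem cells in mitosis, had 34.0 at -25, with 8.52 and 15.3 in the replicates, and puf-5, which acts in oogenesis, had 22.4 at -90, with 7.44 and 19.6. fbf-2 and puf-8 had no pooled promoter entry, although fbf-2 had a replicate 1 entry of 11.6 at -16.

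glp-1, the Notch receptor through which the distal tip cell keeps germ cells in mitosis, had no entry in the pooled list or in replicate 2. In replicate 1 a promoter entry at -687 had a signal of 24.4 and ranked 1909 of 30000, among the 2409 strongest. It is the strongest replicate entry of the 13 genes without a pooled promoter summit.

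**Figure D3:**
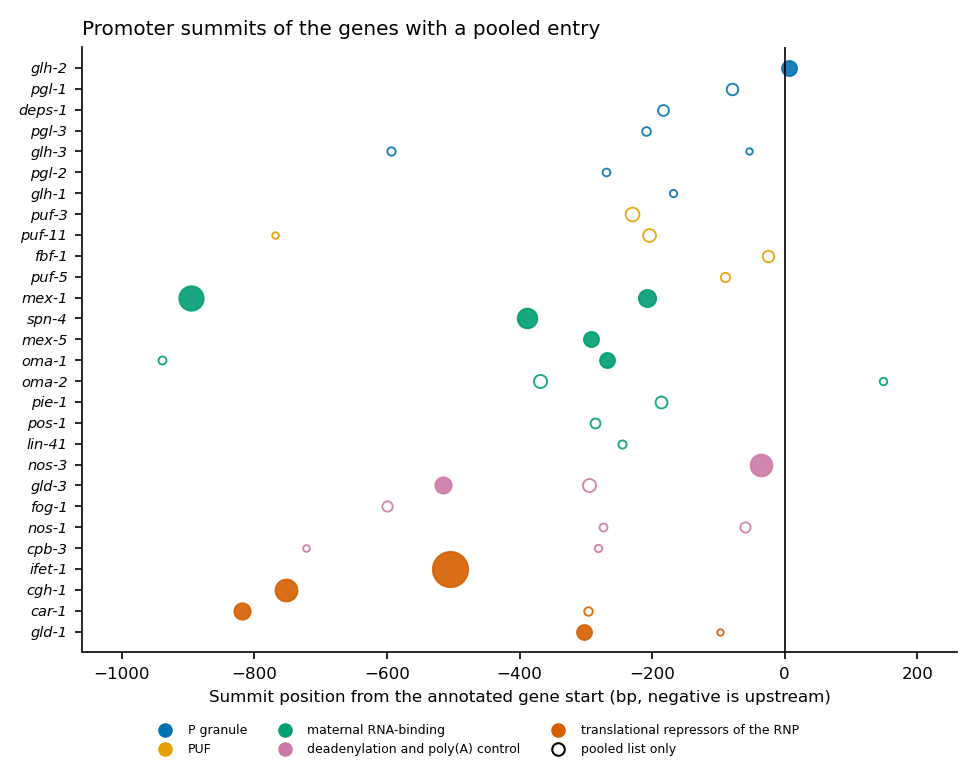
Positions of pooled promoter summits relative to the annotated start, in bp, for the 28 genes with at least 1; point area is proportional to pooled signal, filled points are in the optimal set and open points in the pooled list only. The largest points, at ifet-1, mex-1 and cgh-1, lie more than 500 bp before the start, whereas that of nos-3 lies at -36.

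Strong summits of these genes often lay closer to another gene. The strongest optimal-set summit was shared with at least 1 other protein-coding promoter in 8 of the 11 genes (72.7%), against 57.7% of all genes with such a summit. It lay nearest to the start of the gene itself in 5 of 11, while among the 17 genes with only a pooled entry this held for 16. Its median position was -389, against -235 for all genes with an optimal-set summit. Of the 11 genes, 8 have a divergent neighbour upstream, against 20 of all 41. Divergent neighbours, and the gene nearest to each strongest summit, were not counted over all protein-coding genes. Whether these counts are particular to the 41 genes was therefore not tested. With each summit counted for the nearest start alone, 6 genes kept a summit, and car-1, gld-3, ifet-1, mex-5 and spn-4 did not. Over all protein-coding genes the share fell from 11.7% to 8.17% under the same count. With a promoter of 500 bp before to 100 bp after the start, 7 genes kept one, and car-1, cgh-1, gld-3 and ifet-1 did not, which leaves 1 of 5 repressors, while the share of all genes was 9.52%.

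The replicate lists gave different counts for the strongest entries. Among the 2409 strongest of replicate 1, 12 of the 41 genes (29.3%) had a promoter summit, against 10.9% of all genes. Among those of replicate 2 it was 7 (17.1%), against 11.8%. All 7 were also in replicate 1: mex-1, spn-4, nos-3, cgh-1, car-1, ifet-1 and gld-1, and over all genes 8.39% had a summit in both. The repressors had 4 of 5 in each replicate, while maternal RNA-binding genes had 4 and then 2, and deadenylation genes 2 and then 1. P granule genes had none of 10 in either (interval 0 to 30.8).

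At the 11 optimal-set summits, signal was higher in replicate 2 at 7 genes, with a median log2 ratio of replicate 2 over replicate 1 of 0.42 (SD 0.92 across genes, range -1.15 to 1.90). Over the 1658 optimal-set promoter peaks matched in both lists, the median was 0.68 (SD 0.64), and 1468 were higher in replicate 2. The lists were called separately and the depth of each is unknown, so the general offset has no meaning for single genes. Against it, cgh-1 (1.90) and spn-4 (1.63) lay toward replicate 2, and mex-5 (-1.15) and gld-3 (-0.77) toward replicate 1. Of the 28 genes with a pooled entry, 23 had an overlapping entry in both replicate lists, 24 in replicate 1 and 27 in replicate 2. The genes matched in a single list were pgl-1, pgl-2, pgl-3, glh-3 and cpb-3.

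**Figure D4:**
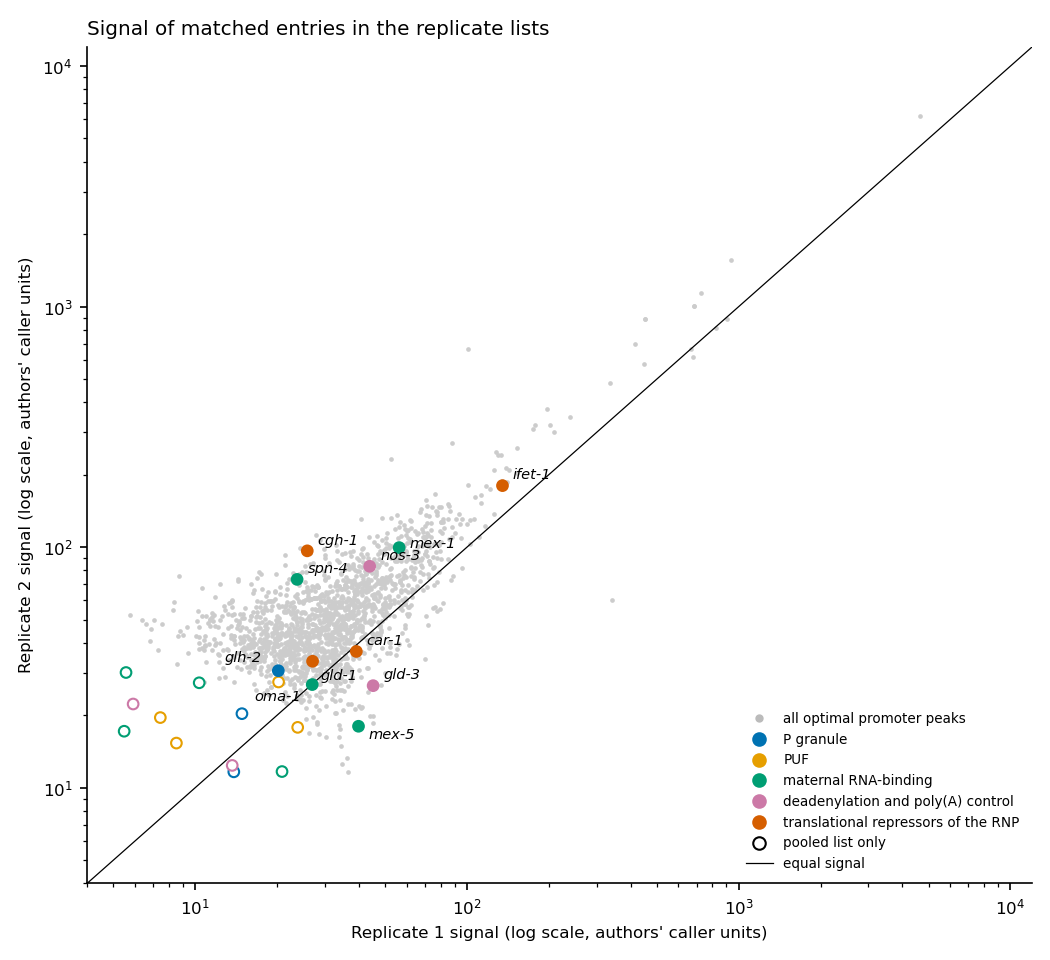
Signal in replicate 2 against replicate 1 on log axes, in the units of the authors' caller, for the entries that overlap each pooled summit; coloured points are the 11 genes with an optimal-set summit (filled) and those with a pooled entry matched in both replicates (open), grey points are the 1658 matched optimal-set promoter peaks, and the line marks equal signal. cgh-1 and spn-4 lie well above the line and mex-5 and gld-3 below it.

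Paralogs did not always carry alike entries. fbf-1 and fbf-2 have the most similar proteins among the 9 pairs compared (89.1% identical) and an exact run of 58 bp in common in their promoters, yet only fbf-1 had a pooled entry. In replicate 1 the promoter entry of fbf-2 was the stronger, at 11.6 against 8.52 for fbf-1. Replicate 2 held an entry for fbf-1 alone, at 15.3. The shared run starts at -42 in fbf-1 and -56 in fbf-2, near the fbf-1 summit at -25, and how reads that map to both copies were treated is not given in the sources used here, so the difference is uncertain. puf-3 and puf-11 share an exact run of 32 bp and both had entries. oma-1 and oma-2 (62.7% identical) both had entries, with 57.8 and 43.8, and so did pgl-1 and pgl-3 (56.8%). In 4 pairs a single gene had a pooled promoter entry: fbf-1 of fbf-1 and fbf-2, mex-5 of mex-5 and mex-6 (70.4%), nos-1 of nos-1 and nos-2 (17.8%), and cpb-3 of cpb-1 and cpb-3 (20.6%). glh-1 and glh-2 (66.6%) had 13.8 and 57.9, and meg-1 and meg-2 (32.2%), which share a run of 32 bp, had none.

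The summit windows of the 11 genes were richer in G and C than the 300 bp around their starts. Several summits lie outside that stretch, as at -895 for mex-1 and -819 for car-1, so the values describe different places. Over the 12 optimal-set summit windows of 101 bp the median GC content was 47.0%, against 44.6% at all 1663 nuclear optimal-set promoter summits. Over the 300 bp around the start the median was 35.7% for these 11 genes, 34.0% for the 41 genes and 34.3% for 19973 nuclear genes. Of 4 short elements searched on both strands, TATAAA was in 0 of the 12 windows and in 6.19% of all, GAGAGA in 1 and 17.7%, GGGCGG in 0 and 5.95%, and TTTGAA in 5 (41.7%) and 22.7%. With 12 windows these shares are coarse.

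CGAGACC lay in 4 of the 12 windows (33.3%), those of mex-1, car-1 and gld-1 among them, against 9.98% of the windows at all optimal-set promoter summits. Among the 28 strongest pooled windows of these genes it was in 7 (25%), with puf-3, puf-11 and lin-41 added, against 3.92% for the strongest pooled windows of all genes and 1.34% at pooled summits outside promoters. GCGCCTT lay in 1 of the 12 windows (8.33%), against 7.94%, and in 4 of the 28 (14.3%), those of pgl-3, puf-3 and puf-11 among them, against 3.15%. The 300 bp promoters of all nuclear genes held CGAGACC in 3.04% and GCGCCTT in 2.52% of cases. In puf-3 and puf-11 both lie on the strand of the gene with their first bases 27 bp apart, as the printed windows show. The same spacing of 27 bp occurs on the other strand near the pgl-1 summit, outside the window, and car-1 has 30 bp. Of all optimal-set promoter windows, 35 held both on the same strand, and in 19 of them the spacing was 26 to 30 bp, a range set after these values were seen. puf-3 and puf-11 are paralogs, so their windows are not independent.

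Other genes of the same pathways were taken from lists of 59 symbols, of which 57 were found among protein-coding genes. Of these, 21 (36.8%, interval 24.4 to 50.7) had an optimal-set promoter summit and 42 (73.7%) a pooled one, against 11.7% and 40.1% of all protein-coding genes. The poly(A) binding and extension partners had 4 of 6, led by larp-1, a La-related RNA-binding protein, with 321 at a summit shared with wip-1, followed by the poly(A)-binding protein gene pab-2 (88.1), rnp-8, a partner of GLD-2 (72.1), and pab-1 (55.2, shared with rpl-30). The CCR4-NOT and other deadenylase genes had 5 of 11, namely ntl-11 (226), ntl-2 (105), panl-3 (79.3, shared with cnx-1), ccf-1 (73.2, shared with trap-4) and ntl-4 (61.3). By comparison, gld-2 had no promoter summit in the optimal set or the pooled list.

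Decapping and mRNA granule genes had 4 of 8, with lsm-3 (119.5, shared with mdt-9 and other genes), edc-4 (109), lsm-1 (81.5, shared with rps-9) and dcap-2 (60.8). Other maternal and meiotic regulators had 4 of 9, led by atx-2, the ataxin-2 gene, with 174 at a summit shared with ecps-1, then tiar-1 (95.4, shared with lelo-4), lin-28 (72.2) and cey-2 (54.6, shared with xrep-4). Of the other PUF genes, puf-9 (114) and puf-12 (102, shared with pas-7) had one among 4, against 0 of the 6 PUF genes of the set, and the intervals of these shares overlap. The eIF4E genes had 1 of 5, ife-3 (68.9), and other P granule and perinuclear genes 1 of 8, znfx-1 (67.2). That share of 12.5%, like the 10% of the P granule genes of the set, lies near the 11.7% of all genes. The 10% holds with cgh-1, car-1 and ifet-1, each with an optimal-set summit, counted as repressors, and it would be higher with any of them added. The 6 Notch partners of GLP-1 had none, as glp-1 itself did.

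By chromosome, the 13 genes on I had 3 with an optimal-set summit, the 11 on II had 3, the 6 on III had 2, the 5 on IV had 2 and the 4 on V had 1. Neither of the 2 genes on X had a summit in the optimal set or the pooled list. Over all protein-coding genes, the share with an optimal-set promoter summit was 18.5% on I, 10.8% on II and 19.2% on III. It was 11.7% on IV, 7.35% on V and 5.86% on X.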

How the data were processed

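ChIP-seq of eGFP-tagged W03F9.2 was analysed in 2 biological replicates of 1 group. The authors called peaks and background for each replicate and for both together against a control alignment, per the files' accompanying notes. The sources used here name neither an aligner nor a caller. The deposited signal of each peak is in the units of the authors' caller, and the deposited −log10 q-value was used only to check the lists. The ce11 lists were used, and their 92409 entries all lie within the WBcel235 chromosomes. The 2409 optimal-set peaks are the 2409 strongest of the pooled list. The summit lies at the peak's middle in 87.9% of them, so positions are approximate. Read depth per sample is unknown.

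Gene starts came from Ensembl release 115. A summit counted for each protein-coding gene whose promoter held it, and the strongest was used where there were several. An entry of a replicate list was matched to a pooled peak by an overlap of at least 1 bp. Shares have exact 95% Clopper-Pearson intervals (scipy 1.17.1), which cover counting error only. For a count of 0, the upper limit comes from the same exact interval. No hypothesis test was run, because there is 1 group and no control group. Protein identity was computed with Biopython 1.88 from coding sequences translated from the genome, and figures were drawn with matplotlib 3.10.9. The sequence under 1 summit is not reported here. The promoter assignment was tested on simulated summits. The text names all 41 genes, the genes that share an optimal-set summit with them, and the listed pathway genes with an optimal-set summit. The genes and lists were chosen with earlier results of these data known. Alternatives covered the promoter window, nearest start, peak position, peak threshold, transcript starts, replicate matching and each replicate left out. The ce10 lists were not used here, and 0 columns of unmapped samples were present.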

Additional observations from a re-analysis of the deposited data

How the results depend on the processing

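Of 107 alternative values, 79 stayed within 1.5 times the count, or within the spread of the value. Counts of 0 that stayed 0 are among the 79. For the median signal the spread was the SD between the replicate medians, 1.64, which is narrow beside the pooled median of 68.7. Medians from a single replicate are on another scale than the pooled one, so their scoring as moved carries no information. Only the replicate ratio could be scored as reversed, and it kept its sign. With promoters of 500 bp before to 100 bp after the start, 7 of the 41 genes had an optimal-set summit (9.52% of all protein-coding genes, against 11.7% with the main promoter), with 1 deadenylation gene and 1 repressor, and the median signal was 58.2. With the nearest start only, these were 6 genes (8.17% of all genes), with 2 maternal RNA-binding genes, 1 deadenylation gene and 2 repressors, and a median of 67.0. In the 1204 strongest optimal-set peaks there were 5 genes (7.11% of all genes), with 0 P granule genes, 2 maternal RNA-binding genes, 1 deadenylation gene and 2 repressors, and a median of 123, which that threshold raises by construction. In the 5000 strongest pooled entries there were 17 genes (18.1% of all genes), with 2 P granule and 3 PUF genes, and a median of 57.9. Leaving out each replicate gave 7 genes (without replicate 1) to 12 (without replicate 2), with 0 P granule genes both times. The same range was 2 to 4 maternal RNA-binding genes and 1 to 2 deadenylation genes, with the lower value without replicate 1, and 0 to 1 PUF gene and 0 to 1 Notch receptor gene, with the higher value, puf-11 and glp-1, without replicate 2. At the 11 genes of the optimal set, the median signal of the matched entries was 36.8 in replicate 2 alone (without replicate 1) and 39.2 in replicate 1 alone (without replicate 2), each on the scale of its own list. mex-1 and nos-3 had a summit in all 11 settings. The pooled-list count, the pathway count and the replicate ratio stayed within those limits under every alternative run. No paired analysis was possible because the samples form 1 group. Limits are the unknown depth, approximate summits, shared promoters and the absence of a control group.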
